A study of Mus musculus with 12 samples.

Results

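MB114 cells that had spent 25 h on Matrigel were compared with the same cells after 5 h, across all genes that the array measured above a low signal. Of the 12 arrays of the study, the 6 whose titles gave 25 h or 5 h were used for the comparison, 3 for each time. The remaining 6 arrays, from 1 h and 15 h, entered the fit as a source of error and are otherwise described beside it. MB114 is a mouse line labelled as microvascular endothelial. All groups were the same untreated line, split 24 h before it was placed on the gel, and differed in hours on Matrigel alone. RNA of each culture was hybridised to 1 Affymetrix array, and each measurement is a MAS5 signal, the array software's brightness of a probe set on a linear scale. The labels call the arrays of each time biological replicates 1 to 3, and equal numbers were treated as pairs. Signals are given below in the order of replicates 1, 2 and 3.

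Matrigel is a basement membrane extract rich in laminin and collagen IV, on which endothelial cells stop spreading and arrange themselves into cords within hours. Placing cells on it also passes through detachment, reseeding and fresh medium, which set off a burst of immediate early and stress genes of their own. A cell that leaves the cycle lowers its genes for DNA copying and division, usually with those that build ribosomes, and a cell short of growth signals or nutrients typically makes more lysosomes. The interval from 5 h to 25 h leaves out the first hours after the transfer.

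Of 12393 named genes on the array, 7379 (59.5%) passed the filter on low signals and were tested with limma (Benjamini-Hochberg adjusted p under 0.05, called a change). The test called 3514 genes, 47.6% of those tested. Of the tested genes 26.3% were higher at 25 h, 1942 genes, and 21.3% were lower, 1572 genes. Changes of at least 2-fold were called for 741 genes higher and 509 lower, and changes of at least 4-fold for 135 and 97. In 3360 genes, 45.5% of those tested, the 3 signals of one time did not overlap the 3 of the other. Of the called genes, 3448 moved the same way in all 3 pairs. The calls were made on these same pairs and favour such genes, so this count is no separate support. With the arrays' median signals made equal, which lowered every change by 0.23 on the log2 scale, the test called 1153 genes higher and 2211 lower. Rises then made up 34.3% of the calls against 55.3% with the deposited scaling, so the balance of rises and falls depends on the scaling. The median signal of an array was 154, 177 and 174 at 5 h and 209, 200.0 and 181 at 25 h, the 25 h arrays all higher.

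**Figure D1:**
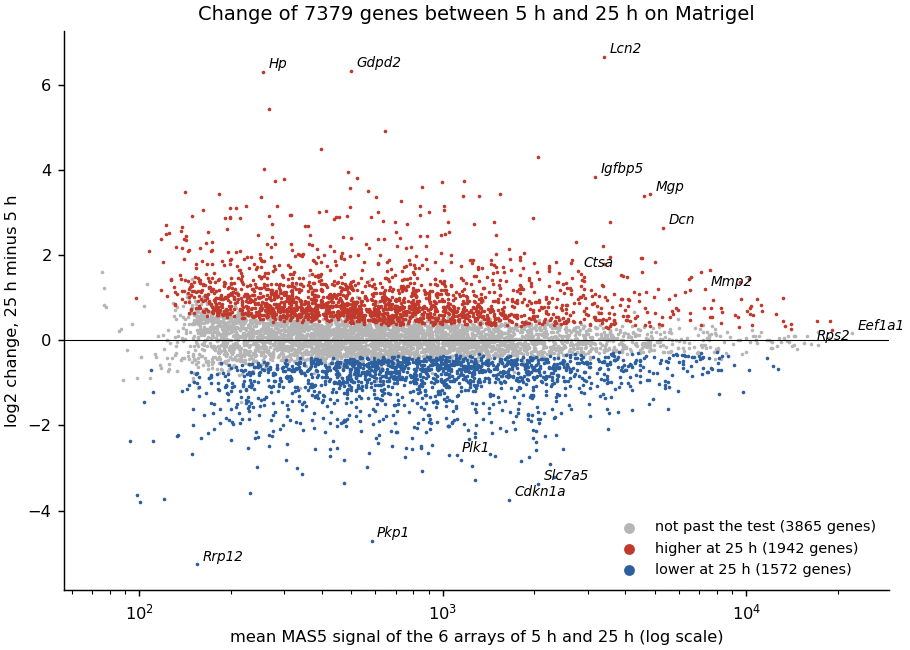
Each point is 1 of 7379 genes, with its mean MAS5 signal over the 6 arrays on the x axis (log scale) and its log2 change from 5 h to 25 h on the y axis. Red genes were higher (1942), blue genes lower (1572) and grey genes did not pass the limma test. Lcn2, Gdpd2 and Hp lie at the top and Rrp12 and Pkp1 at the bottom, while the brightest genes, such as Rps2 and Eef1a1, lie near 0.

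The 15 h arrays, which took no part in the contrast, lay on the way between the 2 times for most called genes. Their mean was between those of 5 h and 25 h for 1649 of the 1942 genes that rose and 1377 of the 1572 that fell, against 4619 of all 7379 genes. Called genes were selected for 5 h and 25 h means that lie apart, which leaves more room for a mean between them. The larger share among them is thus partly fixed by the selection, and the counts are a description. Among genes that changed at least 2-fold, the median share of the change reached by 15 h was 74.5% for rises and 59.1% for falls. At 1 h the mean was below both later means for 928 of the rising genes and above both for 636 of the falling genes. For 942 rising and 874 falling genes, the 1 h mean lay between those of 5 h and 25 h, against 2742 of all 7379 genes, with the same limit.

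The endothelial label was set against 25 endothelial markers on the array. Only 5 of them passed the filter, Cd34, Cd93, Cdh5, Flt1 and Gata2. Pecam1, Tie1 and Vwf, which define endothelium, had mean signals of 17.9, 1.89 and 1.70 over the 12 arrays, far under the filter of 183. Cdh5, the cadherin of endothelial junctions, averaged 228 ± 178 at 5 h and 141 ± 68.1 at 25 h (SD, n = 3), about the level of the filter. Cd93, Cd34, Gata2 and Flt1 were brighter, with means of 927, 531, 470.3 and 289 over the 12 arrays, and Kdr, a VEGF receptor, was under the filter at 136. The endothelial markers were thus unevenly present, with 10 of the 25 at a mean under 44.9. Of 14 fibroblast markers 11 passed, and their summed signal was 60703 to 80203 at 5 h and 83787 to 123561 at 25 h. Pericyte and smooth muscle markers summed to 9553 to 18129 at 5 h and 5246 to 7194 at 25 h, with 6 of 16 above the filter. Of 15 leukocyte markers 3 passed, with sums of 4323 to 6305 at 5 h and 7378 to 11428 at 25 h, mostly from Csf1r, which averaged 2655 at 5 h and 903 at 25 h, and Cd14, at 1858 and 7206. Ptprc, which defines leukocytes, and Itgam, of the same list, reached at most 42.3 and 25.9 on any array. Of 15 epithelial and 10 parietal endoderm markers 2 and 1 passed, and 8 and 4 had a mean under 44.9, the 25th percentile of all signals. The rest lay between, among them Krt8, Gata4 and Gata6 with means of 153, 165 and 141 over the 12 arrays. Fewer cells of a kind and less RNA per cell cannot be told apart in such cultures, and the part of other cell types in the results was not tested.

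**Figure D2:**
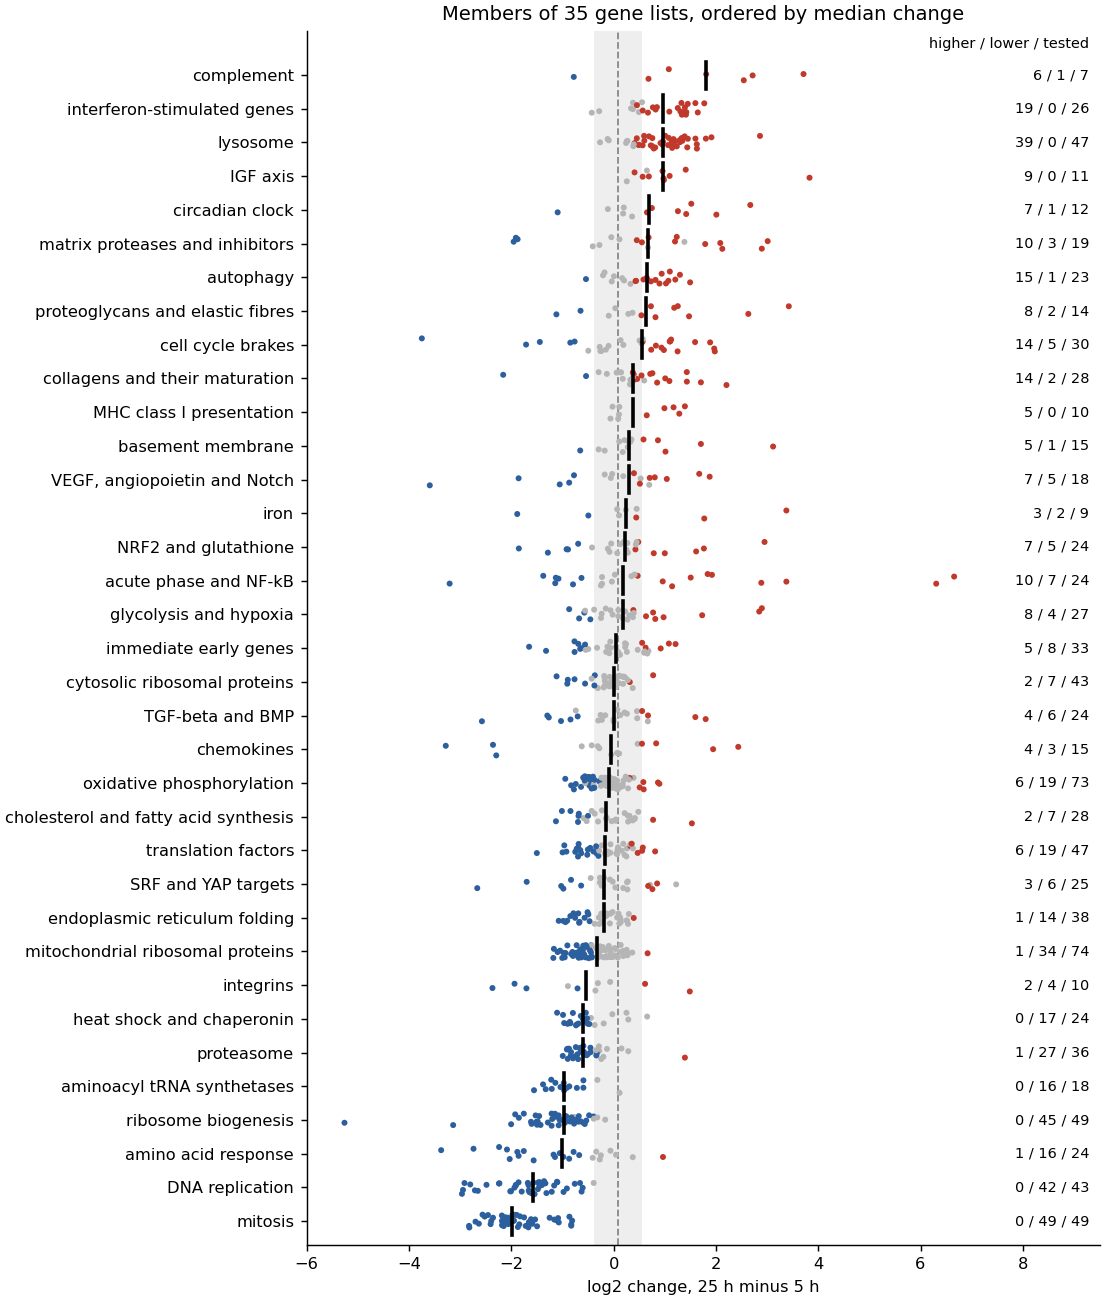
Each row is 1 of 35 gene lists and each point 1 tested member, with its log2 change from 5 h to 25 h on the x axis (red higher, blue lower, grey not past the test). The black bar is the list's median, the dashed line the median of all 7379 genes (0.08) and the grey band their middle range, from -0.37 to 0.54. The mitosis, DNA replication and ribosome biogenesis lists lie to the left of the band, and the complement, lysosome and interferon lists to its right.

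Genes of the cell cycle fell together. The counts of each list are to be read against the 26.3% of all tested genes that were higher and the 21.3% that were lower. All 49 tested members of the mitosis list were lower at 25 h, with a median log2 change of -1.98 against 0.08 over all genes tested. Of 43 DNA replication genes 42 were lower and none was higher, with a median of -1.57. The remaining one, Rpa3, the small subunit of the single-strand binding complex, measured 288, 439.7 and 437 at 5 h and 242, 421 and 242 at 25 h with no call (-0.39 ± 0.24, adjusted p = 0.191).

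Mcm5, a subunit of the helicase that opens DNA for copying, had signals of 2810.4, 2479.7 and 2405 at 5 h and 557, 446 and 240 at 25 h. The 3 signals at 25 h were all below the lowest at 5 h, and replicate 3 was the lowest of them. Its log2 change was -2.71 ± 0.18 (SE, n = 3 per time, limma adjusted p = 3.61e-07), a fall of 6.55-fold. Mcm3 of the same helicase went from 2110.4, 2068 and 1836 at 5 h to 314, 370.2 and 203 at 25 h, a log2 change of -2.80 ± 0.15. Rrm2 and Tk1, which make DNA precursors, fell 7.54-fold and 7.70-fold, and Pole, the leading-strand polymerase, 7.81-fold. These falls were among the 15 largest in bright genes without overlap (a mean signal of at least 304.7 at one of the times). Pole was at background, 37.6, on the 25 h array numbered 3, and its fall was 5.56-fold after 44.9 was added to each signal.

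Plk1, the kinase that drives entry into and passage through mitosis, measured 1859.9, 1876 and 2035 at 5 h and 375, 274 and 252 at 25 h. The times did not overlap, and its log2 change was -2.70 ± 0.15 (adjusted p = 1.21e-07). Aurka, a spindle pole kinase, changed by -2.46 ± 0.17, Incenp, the scaffold of the chromosomal passenger complex, by -2.10 ± 0.14, and Ccnf, a cyclin of the G2 phase, by -2.82 ± 0.19. Sgo1, which protects sister chromatid cohesion, fell 10.1-fold, Ube2c, a ubiquitin carrier of the anaphase complex, 7.09-fold, and the mitotic kinase Melk 7.89-fold. Sgo1 and Melk reached background on the 25 h array numbered 3, and their falls were 6.22-fold and 4.69-fold after 44.9 was added to each signal. The fall was deepest in the cultures numbered 3: the median change of the mitosis list was -1.43, -1.66 and -2.61 in pairs 1, 2 and 3, and that of the DNA replication list -1.43, -1.35 and -1.90. In the fit without the arrays numbered 3, 48 of the 49 mitosis genes and 41 of the 43 replication genes were still lower.

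Promoters of these lists were read for the short motifs that cell cycle factors bind, because the members moved together. The windows are RefSeq's for the mouse build GRCm38.p6, from 250 bases before to 50 bases after the transcription start, 1 window per gene. Such a window existed for 6049 tested genes. All motifs were searched in the 250 bases before the start alone, so those in the 50 bases after it were not counted. The E2F motif TTTCCCGC, on either strand, was in 2 of 36 DNA replication promoters (5.6%) and 2.0% of all tested promoters, and TTTGGCGC in 3 of 36 (8.3%) and 1.0%. The cell cycle homology region TTTGAA was in 16 of 41 mitosis promoters (39.0%) and 10.1% of all, and the CCAAT box in 32 of 41 (78.0%) and 36.8%. These shares describe letters in a window and were not tested. Stretches of 90 bases are shown for the called members with the smallest p that held a motif, in the direction of the gene, with the motif in capitals. Mcm7 (chr5:138172000-138172089, minus strand) and Cdc6 (chr11:98907972-98908061, plus strand) hold the first E2F motif, Mcm5 (chr8:75109319-75109408, plus strand) and Pola1 (chrX:93632245-93632334, minus strand) the second, and Ccnf (chr17:24251410-24251499, minus strand), Cdc20 (chr4:118437344-118437433, minus strand) and Top2a (chr11:99024190-99024279, minus strand) the TTTGAA motif 14, 18 and 23 bases before the start.
Mcm7: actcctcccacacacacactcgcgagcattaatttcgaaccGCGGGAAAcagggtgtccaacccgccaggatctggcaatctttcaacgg
Cdc6: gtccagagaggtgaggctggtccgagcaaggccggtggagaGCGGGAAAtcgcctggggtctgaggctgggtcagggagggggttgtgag
Mcm5: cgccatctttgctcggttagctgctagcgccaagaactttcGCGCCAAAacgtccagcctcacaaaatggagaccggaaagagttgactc
Pola1: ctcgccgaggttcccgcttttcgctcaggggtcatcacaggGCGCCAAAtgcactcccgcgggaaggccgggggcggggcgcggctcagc
Ccnf: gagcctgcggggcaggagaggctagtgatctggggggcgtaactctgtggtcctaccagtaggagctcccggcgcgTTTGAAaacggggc
Cdc20: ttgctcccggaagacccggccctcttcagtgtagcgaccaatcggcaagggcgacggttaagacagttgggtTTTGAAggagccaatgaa
Top2a: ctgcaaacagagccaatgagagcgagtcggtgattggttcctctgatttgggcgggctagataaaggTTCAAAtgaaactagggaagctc

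Genes that restrain the cycle went both ways. Of 30 tested, 14 were higher and 5 lower, with a median of 0.56. The list also holds genes that are not brakes themselves, such as Mdm2, which opposes p53 (-0.85, lower), and the ligand Gas6 (0.74, higher). Hbp1, a repressor of G1 genes, rose from 438, 697 and 492 at 5 h to 1715, 1927 and 2300.4 at 25 h, a log2 change of 1.89 ± 0.17 with no overlap of the times (adjusted p = 2.47e-06). Mxd4, an antagonist of Myc, rose by 1.98 ± 0.23, and Gas1, named for its growth-arrest-specific expression, by 1.59 ± 0.20. Cdkn1a, the p53-induced inhibitor p21, went the other way and had the second largest fall among bright genes without overlap, with signals of 4342, 2230.3 and 2674 at 5 h and 214, 214 and 233 at 25 h. Its 25 h arrays lay close together and far below the lowest 5 h array (-3.75 ± 0.42, a fall of 13.4-fold, adjusted p = 1.38e-05), and its mean had already fallen to 309 ± 100.2 (SD, n = 3) at 15 h. Btg1, a brake on proliferation of quiescent cells, measured 5312, 5197 and 4231 at 5 h and 7387, 6103 and 3854 at 25 h and did not pass (0.19 ± 0.13, adjusted p = 0.238).

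Genes that assemble ribosomes fell, while most ribosomal protein genes did not pass the test. Of 49 genes for ribosome assembly and RNA polymerase I, 45 were lower and none higher, with a median of -0.97. Of 43 cytosolic ribosomal proteins, 7 were lower and 2 higher, with a median of 0.01; this median was -0.22 with equal array medians. Mitochondrial ribosomal proteins lay between, with 34 of 74 lower and 1 higher (median -0.33). The 34 became 22 without 25 h replicate 1 and 15 without all arrays numbered 1. The 7 cytosolic ones became 4 without the block, without 5 h or 25 h replicate 1, without 25 h replicate 3 and without all arrays numbered 1 or 3.

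Nolc1, a nucleolar chaperone of small nucleolar RNPs, had signals of 1766, 1379.6 and 1415 at 5 h and 436, 378 and 383 at 25 h. The times did not overlap, with a log2 change of -1.92 ± 0.14 (adjusted p = 7.34e-07). Rrp9, which binds the U3 RNA of the small subunit processome, went from 536, 667 and 638 at 5 h to 46.3, 67.2 and 108 at 25 h, and Bysl, needed for the small subunit, from 1756, 1691 and 1783 at 5 h to 455, 505 and 490 at 25 h, both without overlap. Rrp12, an export factor of the small subunit, dropped from 402, 243 and 260.4 at 5 h to 9.80, 5.90 and 7.80 at 25 h. Its 25 h signals are in the background of the array, so its fall of 38.3-fold depends on values near 0 and was 6.45-fold after 44.9, the 25th percentile of all signals, was added to each signal. Nop10 and Polr1c, 2 of the 4 that did not pass, changed by -0.32 ± 0.14 and -0.16 ± 0.16. The protein genes Rps2 (-0.09 ± 0.10) and Rps28 (0.19 ± 0.09) were among the brightest on the arrays and did not pass, and replicate 1 was the highest at both times. The called ribosomal protein genes with the smallest p were Rps25 (-0.90 ± 0.14), Rpl12 (-0.91 ± 0.15), Rps27l, a p53-induced relative of a ribosomal protein (-1.12 ± 0.19), and Rpl7l1 (-0.76 ± 0.14). The E-box CACGTG, the motif of Myc, was in 2 of 43 ribosome biogenesis promoters (4.7%) and 8.8% of all.

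Genes of the amino acid response and of tRNA loading were lower as well. Of 24 genes of the amino acid response, 16 were lower and 1 higher (median -1.02). Of 18 aminoacyl tRNA synthetases, which load tRNAs, 16 were lower and none higher (median -0.97). The first list also holds stress-response genes that supply no amino acids, such as Atf4, Trib3, Chac1 and Vegfa. Slc7a5, the light chain of the main importer of large neutral amino acids, had the smallest p of all genes. Its signals were 4349.9, 4221 and 2719 at 5 h and 476, 368 and 257 at 25 h, a log2 change of -3.37 ± 0.13 and a fall of 10.3-fold (adjusted p = 7.11e-09). The times did not overlap, and replicate 3 was the lowest at both. Slc3a2, the heavy chain of the same importer, measured 7434, 5462 and 5375 at 5 h and 4725, 3939.9 and 6702 at 25 h and did not pass (-0.27 ± 0.16).

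Mthfd2 and Shmt2, which make mitochondrial one-carbon units from serine, changed by -2.74 ± 0.17 and -2.24 ± 0.17, and Psat1, a step of serine synthesis, by -1.86 ± 0.15. Tars, the threonine synthetase, went from 3918, 3719.6 and 2540.2 at 5 h to 1555, 1392 and 1082 at 25 h without overlap (-1.33 ± 0.12, adjusted p = 1.81e-06), and Aars, Yars and Gars changed by -1.21 ± 0.13, -1.56 ± 0.17 and -1.14 ± 0.13. Sars (-0.32 ± 0.14) and Qars (0.12 ± 0.13) did not pass. Slc38a2, another amino acid importer, was the 1 member that rose (0.97 ± 0.16), named after its value was seen. The mean of Slc7a5 was 2695 ± 492 at 1 h, 3763 ± 907 at 5 h and 902 ± 221 at 15 h (SD, n = 3), so the level at 25 h was below that at 1 h as well.

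Activating transcription factor 4 binds a composite site, searched here as TGATGNAAT on either strand. It was in 2 of 11 synthetase promoters (18.2%), 1 of 22 amino acid response promoters (4.5%) and 0.3% of all tested promoters, and too few members hold it to read more from the shares. Aars (chr8:111033688-111033777, plus strand) and Nupr1 (chr7:126625533-126625622, minus strand), a stress-induced chromatin protein that changed by -0.78 ± 0.23, hold it on the strand opposite to the gene.
Aars: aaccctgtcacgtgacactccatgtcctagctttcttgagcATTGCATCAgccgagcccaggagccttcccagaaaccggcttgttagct
Nupr1: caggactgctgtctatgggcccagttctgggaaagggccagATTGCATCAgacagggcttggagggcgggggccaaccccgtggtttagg

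Chaperones and the proteasome fell moderately. Of 24 heat shock and chaperonin genes 17 were lower and none higher (median -0.59), and of 36 proteasome genes 27 were lower and 1 higher (median -0.60). Hspd1, the mitochondrial chaperonin, went from 10819.7, 8196 and 8299 at 5 h to 5651, 4737 and 5253 at 25 h, with every 25 h array below every 5 h array (-0.80 ± 0.10, adjusted p = 2.42e-05). Cct3 of the cytosolic chaperonin changed by -0.69 ± 0.09 and Hspa9, the mitochondrial Hsp70, by -0.99 ± 0.12. Hspa8, the constitutive Hsp70, did not pass at 0.25 ± 0.10. The proteasome lid and base subunits Psmd12, Psmd1 and Psmc4 changed by -0.90 ± 0.15, -0.91 ± 0.15 and -0.87 ± 0.14. Without the arrays numbered 1, the proteasome count was 17 of 36. Genes of folding in the endoplasmic reticulum were split, with 14 of 38 lower (8 without the arrays numbered 1, 9 without those numbered 2), 1 higher and a median of -0.19, and the abundant chaperone Calr and isomerase P4hb changed by 0.11 ± 0.12 and 0.07 ± 0.10, neither past the test.

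Lysosomal genes rose together. Of 47 tested, 39 were higher and none lower, with a median of 0.96, close to a doubling (1.95-fold), and 32 were still higher with equal array medians. Ctsa, the protective protein of the lysosome's galactosidase and neuraminidase, had signals of 1612, 1124 and 1369 at 5 h and 3888, 3695 and 5086 at 25 h. All 25 h arrays were above all 5 h arrays, at a log2 change of 1.63 ± 0.14 (adjusted p = 1.63e-06). Tpp1, a lysosomal peptidase, went from 1308, 831 and 1111 at 5 h to 3780.3, 2264 and 4173 at 25 h (1.63 ± 0.14), and Arsa, which removes sulfate from glycolipids, from 987, 693 and 713 at 5 h to 2446, 2130.1 and 2607 at 25 h (1.60 ± 0.15), also without overlap. Dpp7, a lysosomal dipeptidase, changed by 1.91 ± 0.21. The membrane protein Lamp1 (0.26 ± 0.11) and the receptor M6pr, which sorts enzymes to the lysosome (-0.09 ± 0.13), did not pass. All 3 pairs moved alike, with list medians of 0.85, 0.87 and 1.00.

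Of the autophagy genes, 15 of 23 were higher and 1 lower (median 0.65), or 9 with equal array medians and 9 without the arrays numbered 2. Map1lc3b, the LC3 protein of the autophagosome membrane, went from 1474, 1539 and 1554 at 5 h to 4774, 3869.7 and 4279.5 at 25 h, with narrow groups and no overlap (1.50 ± 0.13, adjusted p = 1.50e-06). Its relatives Gabarapl1 and Gabarap changed by 1.07 ± 0.13 and 1.02 ± 0.12, and the cargo receptor Nbr1 by 1.30 ± 0.16. A second cargo receptor, Sqstm1, did not pass, at -0.18 ± 0.14, with signals of 5123, 4626 and 4703 at 5 h and 4694, 3687 and 4457 at 25 h.

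The core of the motif shared by lysosomal promoters, TCACGTGA, was in 6 of 39 promoters of the list (15.4%) and 1.8% of all tested promoters, and the E-box CACGTG, which it contains, in 14 of 39 (35.9%) and 8.8%. Dpp7 (chr2:25356358-25356447, minus strand), Mcoln1, a lysosomal calcium channel that changed by 1.45 ± 0.17 (chr8:3500429-3500518, plus strand), and Gla, the alpha-galactosidase, at 1.06 ± 0.24 (chrX:134601152-134601241, minus strand), are shown. The stretch of Gla holds the motif at 2 places.
Dpp7: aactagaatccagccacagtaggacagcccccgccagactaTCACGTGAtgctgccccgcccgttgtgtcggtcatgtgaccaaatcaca
Mcoln1: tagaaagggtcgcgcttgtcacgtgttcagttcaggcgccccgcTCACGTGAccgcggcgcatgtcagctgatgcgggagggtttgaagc
Gla: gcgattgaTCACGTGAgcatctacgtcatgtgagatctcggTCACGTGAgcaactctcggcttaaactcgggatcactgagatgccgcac

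**Figure D3:**
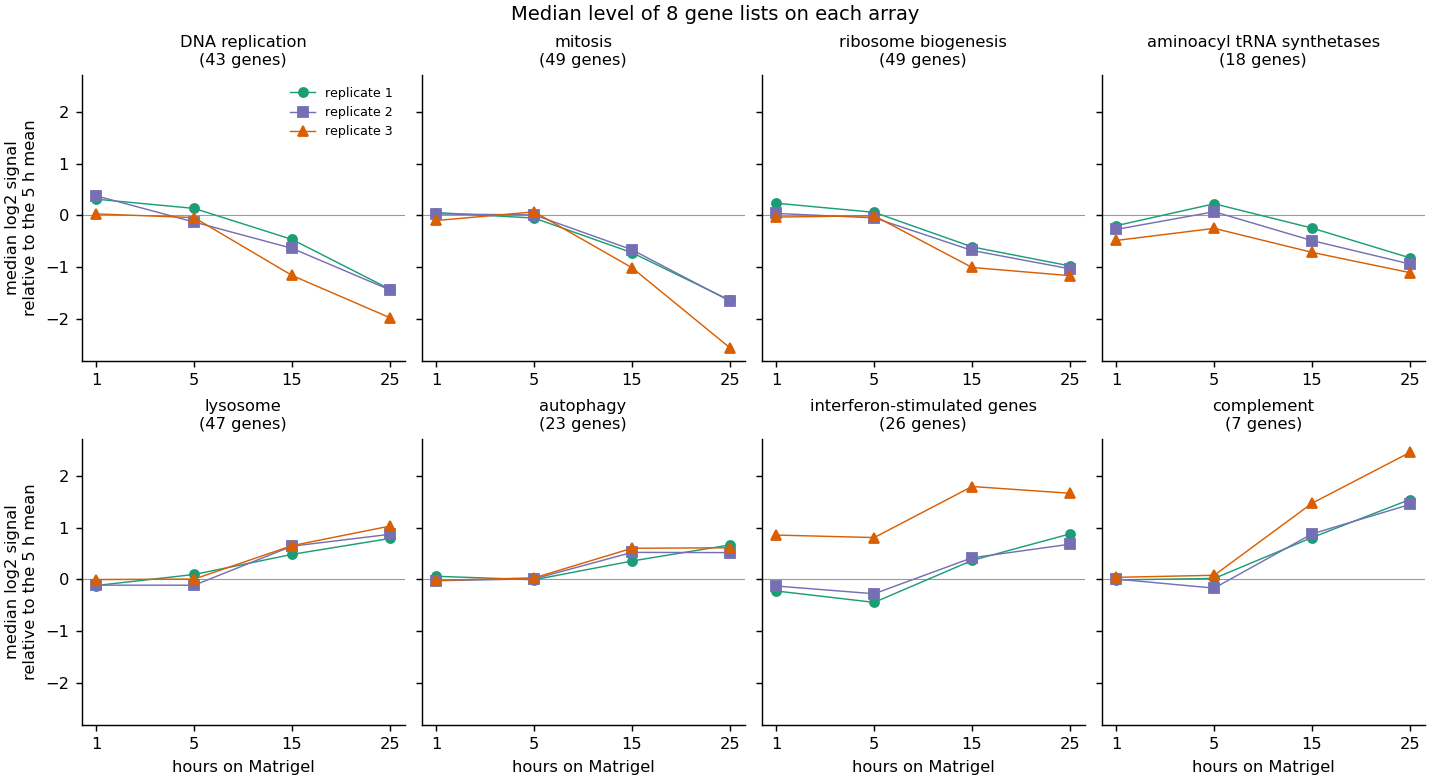
Each panel is 1 of 8 lists, with hours on Matrigel on the x axis and, on the y axis, the median over the tested members of the log2 signal relative to the mean of the 5 h arrays; each line joins the arrays of 1 replicate number. DNA replication, mitosis, ribosome biogenesis and tRNA synthetases are lower and lysosome, autophagy and complement higher on every 25 h array than on every 5 h array. Interferon-stimulated genes are higher on the arrays numbered 3 at all 4 times.

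The 15 largest rises among called bright genes without overlap were led by Lcn2, Gdpd2 and Hp. Lcn2, lipocalin 2, which binds bacterial iron carriers, measured 35.6, 15.7 and 333 at 5 h and 4341, 3643 and 12080.1 at 25 h. Every 25 h array was far above the highest 5 h array, and replicate 3 was the highest at both times. The log2 change was 6.66 ± 0.53, 101-fold, or 47.4-fold after 44.9 was added to each signal (adjusted p = 1.12e-06). Hp, the haemoglobin-binding haptoglobin, went from 7.40, 9.10 and 3.70 at 5 h to 399.7, 532 and 581 at 25 h, at background at 5 h, and is given as 10.5-fold with the added signal. Cp, the copper ferroxidase ceruloplasmin, rose from 409.6, 684 and 1558 at 5 h to 6193, 6304 and 12550.4 at 25 h, a log2 change of 3.38 ± 0.20 (adjusted p = 2.13e-07), with no overlap.

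Steap4, a metalloreductase, rose 13.2-fold, Xdh, which makes uric acid, 29.9-fold (14.0 with the added signal), and Aox1, an aldehyde oxidase, 14.0-fold (8.46). Other genes among the 15 largest rises were Gdpd2, a membrane phosphodiesterase (17.4-fold with the added signal), the guidance molecule Sema5a (8.52), Wnt16 (6.76), the carbonyl reductase Cbr2 (14.3), the lubricating proteoglycan Prg4 (6.21), the peptidase Mme (6.58) and Fbxo32, a ubiquitin ligase of atrophying muscle (6.58). The 5 h signals of these genes, Cbr2 apart, were near background on most arrays, so the sizes depend on what is added to low values. Among the 15 largest rises, Hp, Mme, Prg4 and Wnt16 passed the filter only with the 25 h arrays counted. Their place in the test thus rested on the group in which they were higher.

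The acute phase and NF-kB list held rises and falls, 10 and 7 of 24 (median 0.19). The transcription factor Cebpb rose from 3429.9, 3051 and 4639.8 at 5 h to 6938, 4856 and 10604 at 25 h (0.96 ± 0.15, adjusted p = 1.60e-04) and Cd14, the lipopolysaccharide co-receptor, from 1868, 1679 and 2027 at 5 h to 9605, 6156 and 5856 at 25 h (1.92 ± 0.16). Both were higher on all 25 h arrays. The cytokine Lif fell from 5361, 1678 and 5399.5 at 5 h to 677, 658 and 139 at 25 h, without overlap (-3.21 ± 0.60, adjusted p = 7.28e-04), a call that no further probe set of Lif shared. Nfkbia and Rela, inhibitor and subunit of NF-kB, did not pass, at -0.23 ± 0.12 and -0.03 ± 0.17.

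Chemokines went both ways, with 4 of 15 higher and 3 lower, shares near the 26.3% and 21.3% of all tested genes. The 4 became 2 without 25 h replicate 1 or without the arrays numbered 2. Cxcl2, which attracts neutrophils, fell from 2346, 1288 and 3314 at 5 h to 198, 379.9 and 145 at 25 h, the times apart on every array (-3.28 ± 0.42, adjusted p = 4.20e-05). Ccl2, which attracts monocytes, changed by -2.29 ± 0.40. Cxcl12, the ligand of CXCR4, rose from 1026, 984 and 2788 at 5 h to 5848, 4306 and 6388 at 25 h (1.95 ± 0.21), and Ccl8 rose by 2.44 ± 0.18, again without overlap. Cxcl1, at signals of 8439, 2961 and 6766 at 5 h and 4932, 4615 and 4161 at 25 h, did not pass.

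Complement genes rose in 6 of 7 tested members, with a median of 1.81. C1s1 and C1ra, the proteases of the first component, went from 121, 40.3 and 403 at 5 h to 1348, 1112 and 2946 at 25 h and from 384, 113 and 685 at 5 h to 1939, 1432 and 3030.3 at 25 h. Every 25 h array was above every 5 h array for both, at log2 changes of 3.71 ± 0.41 and 2.72 ± 0.29. Clu, the inhibitor clusterin, rose from 309, 281 and 319.9 at 5 h to 2110.5, 1834 and 1425 at 25 h (2.54 ± 0.17, adjusted p = 3.61e-07), and here replicate 3 was the lowest at 25 h. The 1 member that fell was the receptor C3ar1 (-0.78 ± 0.25), named after its value was seen. The list had 16 genes on the array, of which 9 did not pass the filter.

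Interferon-stimulated genes rose in each pair from unequal starting levels. Of 26 tested, 19 were higher and none lower, with a median of 0.97 and pair medians of 1.10, 1.01 and 0.80. Ifit1, which binds foreign RNA, measured 43.1, 83.8 and 283 at 5 h and 209.7, 217 and 896 at 25 h. The array numbered 3 at 5 h was above those numbered 1 and 2 at 25 h, so the times overlap although each pair rose (1.77 ± 0.26, adjusted p = 1.21e-04). The same overlap was seen in Lgals3bp (651, 636 and 1836 at 5 h and 1793, 1579 and 5081 at 25 h) and Rtp4 (91.2, 111 and 584 at 5 h and 295, 299 and 1069.9 at 25 h), while Parp9, at 203, 152 and 387 at 5 h and 466, 505 and 766 at 25 h, did not overlap. In the fit without the replicate number as a block, 9 of 26 passed, and Ifit1, Lgals3bp and Rtp4 did not (adjusted p = 0.123, 0.101 and 0.245). Without the arrays numbered 3, 16 of 26 were higher. Ifitm1 and Ifitm6, membrane proteins of the interferon-induced family, were among the 15 largest rises at 12.1-fold and 15.3-fold, or 8.44-fold and 9.08-fold with the added signal.

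Antigen presentation rose in part, with 5 of 10 genes of MHC class I presentation higher and none lower (3 without the block). Tapbp, which loads peptides, went from 1507, 1092 and 2229 at 5 h to 2974, 2534 and 5564 at 25 h (1.17 ± 0.13, adjusted p = 1.52e-05), and the times did not overlap. The transporter Tap2 and the proteasome activator Psme1 changed by 1.28 ± 0.20 and 0.99 ± 0.13. The class I heavy chain genes H2-D1, H2-K1 and H2-M3 did not pass, at log2 changes of -0.02, -0.06 and 0.09. B2m, the light chain, measured 3679.9, 4642 and 7245 at 5 h and 6751, 7194 and 9798 at 25 h and overlapped at replicate 3; it did not pass without the block (adjusted p = 0.105).

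The motif of the interferon-stimulated response element, searched as its core TTTCNNTTT, was in 12 of 22 promoters of the interferon list (54.5%) and 7.0% of all tested promoters. Stretches of Lgals3bp (chr11:118401960-118402049, minus strand), Ifit1 (chr19:34640763-34640852, plus strand) and Gbp2, a guanylate-binding protein that changed by 1.60 ± 0.26 (chr3:142620563-142620652, plus strand), are shown, and that of Ifit1 holds the core at 2 places.
Lgals3bp: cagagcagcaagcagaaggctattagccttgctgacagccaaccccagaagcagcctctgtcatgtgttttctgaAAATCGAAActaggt
Ifit1: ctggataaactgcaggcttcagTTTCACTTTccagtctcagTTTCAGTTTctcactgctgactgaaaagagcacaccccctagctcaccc
Gbp2: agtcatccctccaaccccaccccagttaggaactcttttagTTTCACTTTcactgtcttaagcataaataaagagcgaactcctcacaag

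**Figure D4:**
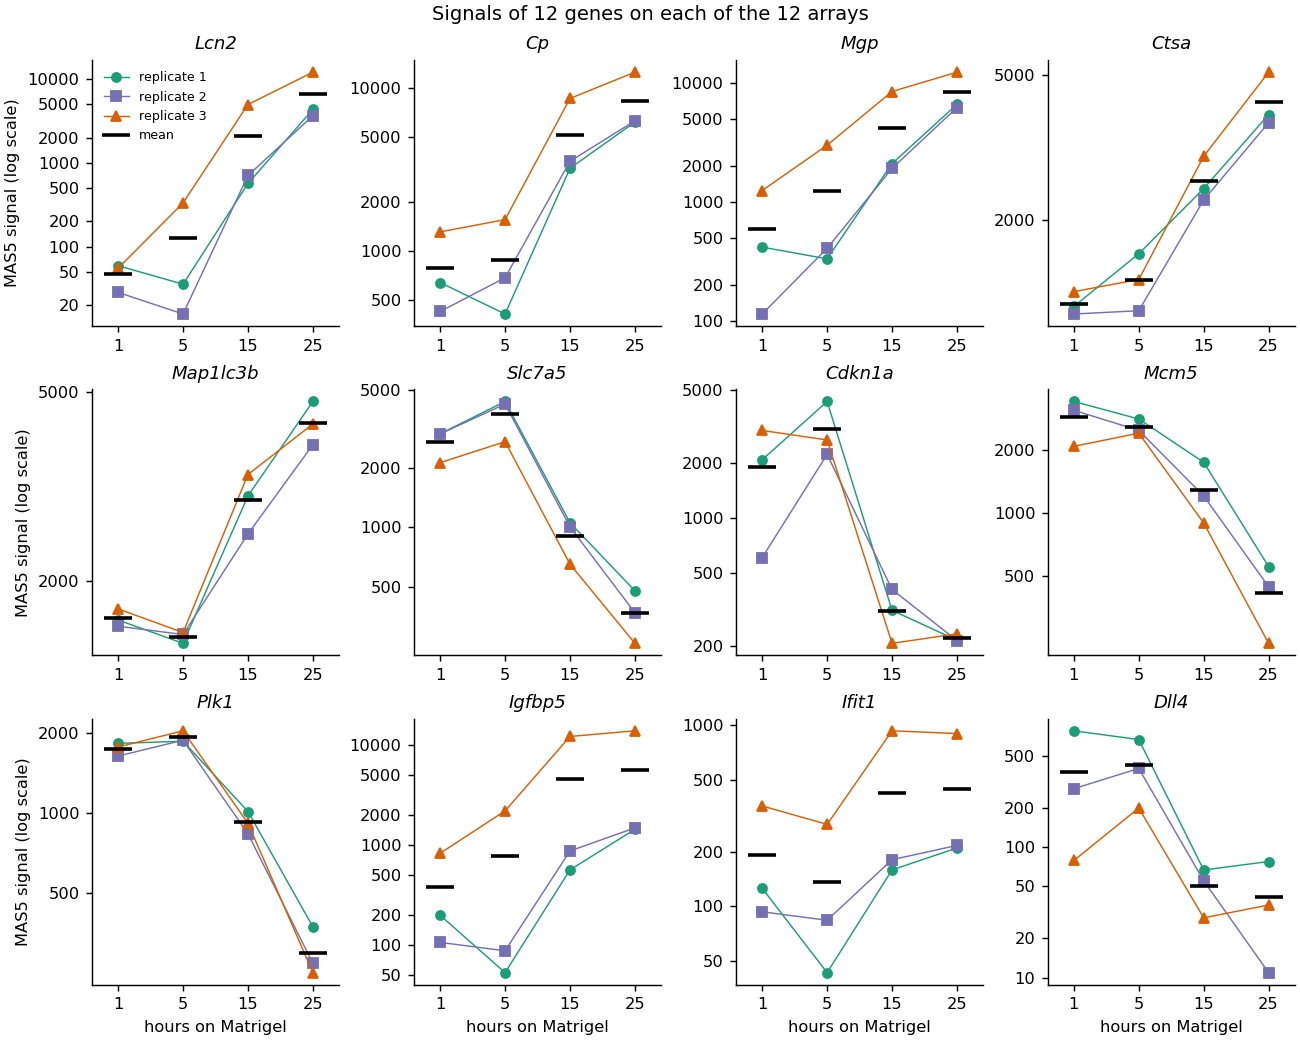
Each panel is 1 gene, with hours on Matrigel on the x axis and the MAS5 signal on the y axis (log scale, ranges differ); symbols joined by a line are the arrays of 1 replicate number and black bars the mean of 3. Lcn2, Cp, Mgp, Ctsa and Map1lc3b are higher and Slc7a5, Cdkn1a, Mcm5, Plk1 and Dll4 lower on every 25 h array than on every 5 h array. In Igfbp5 and Ifit1 the array numbered 3 at 5 h lies above those numbered 1 and 2 at 25 h.

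Genes of the extracellular matrix the cells make were called more often higher than lower. Of 28 genes of collagens and their maturation, 14 were higher and 2 lower (median 0.38), but 8 with equal array medians and 8 without the block. Lox, which crosslinks collagen and elastin, rose from 4274, 5526 and 6991 at 5 h to 16274, 13547 and 14664 at 25 h, without overlap (1.43 ± 0.17, adjusted p = 1.87e-05). Loxl3 of the same family went from 378, 269 and 304 at 5 h to 1472, 1429.8 and 1445 at 25 h (2.21 ± 0.16). Plod1, which hydroxylates procollagen, and Pcolce, which aids its trimming, changed by 1.01 ± 0.15 and 0.76 ± 0.11. Col6a1 and the collagen chaperone Serpinh1 did not pass, at 0.36 ± 0.14 and 0.15 ± 0.11.

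Of 14 proteoglycans and elastic fibre genes 8 were higher and 2 lower (median 0.64). Dcn, the collagen-binding decorin, rose from 697, 1260.5 and 2844 at 5 h to 6447, 6631 and 13980.4 at 25 h (2.63 ± 0.22, adjusted p = 1.60e-06), with all 25 h arrays the higher. Mgp, which inhibits calcification, rose from 333, 409 and 3001 at 5 h to 6616, 6218 and 12312 at 25 h, with replicate 3 well above the others at both times and no overlap (3.42 ± 0.40). Ogn, osteoglycin, had signals of 199, 123 and 1308 at 5 h and 316, 354 and 234 at 25 h and no call (-0.10 ± 0.53), and here replicate 3 fell while replicates 1 and 2 rose. Without the arrays numbered 3 its log2 change was 1.10 (adjusted p = 0.0175).

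Basement membrane genes, the class of molecule the gel itself supplies, were called in 6 of 15, 5 higher and 1 lower (median 0.30, or 0.07 with equal array medians). Lama4, the laminin chain of endothelium, rose from 76.2, 30.5 and 337 at 5 h to 801, 546 and 1173 at 25 h (3.12 ± 0.46, adjusted p = 1.37e-04), and Col4a5 rose by 1.71 ± 0.26. Lamc1, the common laminin gamma chain, changed by -0.65 with signals of 1128, 1024 and 1697 at 5 h and 811, 642 and 968 at 25 h, a call that was lost without the block (adjusted p = 0.0991). Col4a1 (-0.29 ± 0.16) and Nid1 (0.35 ± 0.17) did not pass.

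Among 19 proteases of the matrix and their inhibitors 10 were higher and 3 lower (median 0.67). The metalloproteases Mmp11, Mmp3 and Mmp2 rose, Mmp11 from 227, 192 and 156 at 5 h to 1178, 1258 and 2407 at 25 h (3.01 ± 0.34) and Mmp2 from 5571, 3833 and 3852 at 5 h to 13235, 9084 and 8300.4 at 25 h (1.20 ± 0.15), without overlap of the times. Plaur, the urokinase receptor, fell from 1961, 1552 and 1557 at 5 h to 512, 438 and 397 at 25 h, with no overlap (-1.91 ± 0.14, adjusted p = 7.77e-07). Timp1, the inhibitor, measured 12166, 6769 and 7139.9 at 5 h and 7019, 6686 and 7054 at 25 h and did not pass. Of 26 genes on the array with an integrin name 10 were tested, of which 4 were lower and 2 higher (median -0.53). The tested genes include Itgb1bp1, which binds an integrin but is not a subunit and did not pass (-0.31). The 4 became 2 without the block and when any 5 h or 25 h array numbered 1 or 3 was left out, and with no filter the median over all 26 was 0.25. Itga5, which binds fibronectin, fell from 3153, 1676 and 1748 at 5 h to 640.1, 583 and 715 at 25 h (-1.70 ± 0.22) and Itga6, which binds laminin, changed by -2.37. Itgb5 rose from 2968, 1685 and 1817 at 5 h to 7605, 5095 and 5188 at 25 h (1.49 ± 0.14, adjusted p = 4.43e-06), and Itgb1, the shared beta chain, measured 3333, 5413 and 5695 at 5 h and 4541, 4332 and 4535 at 25 h with no call.

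Genes of vessel signalling went both ways, 7 of 18 higher and 5 lower (median 0.29), with 4 higher without 5 h replicate 2, without 25 h replicate 1, without all arrays numbered 1 or with equal array medians. Dll4, the Notch ligand of endothelial tip cells, fell from 668, 402 and 199.5 at 5 h to 77.6, 10.9 and 36.0 at 25 h (-3.59 ± 0.55, limma adjusted p = 1.81e-04). The 25 h arrays were all below the 5 h arrays, and those numbered 2 and 3 were in the background. With the added signal the fall was 5.20-fold. When no filter was set, a brighter probe set stood for Dll4, at a log2 change of -1.39 that did not pass (adjusted p = 0.0521). The probe set used with the filter passed it only with the 5 h arrays counted. Hes1, a Notch target, went from 686, 679.7 and 735 at 5 h to 155, 231 and 200.5 at 25 h (-1.86 ± 0.30), and had been 1852 ± 1239.6 (SD, n = 3) at 1 h. Vegfd rose from 615, 416 and 900.3 at 5 h to 1792, 1859.8 and 2243 at 25 h (1.67 ± 0.18, adjusted p = 1.28e-05) and Angptl4, an inhibitor of lipoprotein lipase, by 1.04 ± 0.17, while the VEGF co-receptor Nrp1 did not pass (-0.03 ± 0.21). Flt1, a VEGF receptor, fell from 602, 375 and 645 at 5 h to 249, 236 and 277 at 25 h, without overlap (-1.05 ± 0.25), although the other probe sets of the gene did not share the call.

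In the insulin-like growth factor axis 9 of 11 genes were higher and none lower (median 0.96), or 5 without the block and 5 without the arrays numbered 2. Igfbp5, a binding protein of the growth factors, measured 53.1, 87.8 and 2190.3 at 5 h and 1433, 1482 and 13820 at 25 h. Replicate 3 was far above the others at both times and the times overlap, but each pair rose (3.83 ± 0.42, adjusted p = 1.17e-05; 0.0602 without the block). Igfbp4 went from 12046, 6801 and 7539 at 5 h to 24357, 11998 and 16331 at 25 h (0.98 ± 0.12) and Igfbp6 from 2512, 2412 and 3371 at 5 h to 5149, 4078 and 7112 at 25 h (0.96 ± 0.14). Igf1r, the receptor, changed by 1.10 ± 0.21. Igfbp2 rose in 2 of 3 pairs and did not pass (0.26 ± 0.23).

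Of 16 markers of pericytes and smooth muscle on the array 6 were tested, of which 4 were lower and none higher (median -1.27). The other 10 were dim, and with no filter the median over all 16 was 0.26: Anpep, Notch3 and Rgs5 had means of 58.7, 92.9 and 82.2 at 5 h and 183, 190.03 and 152 at 25 h. Acta2, smooth muscle actin, measured 3952, 3409 and 8764 at 5 h and 1122, 1102 and 2791 at 25 h, and each time's array numbered 3 was the highest (-1.70 ± 0.14, adjusted p = 1.12e-06). Tagln, an actin-bundling protein, went from 2324, 1328 and 3771 at 5 h to 239, 338 and 563 at 25 h without overlap (-2.67 ± 0.22), and Cspg4, a surface proteoglycan of pericytes, from 1827, 2029 and 1118 at 5 h to 404, 629.9 and 252 at 25 h, a fall of 4.01-fold. Over the list of serum response factor and YAP targets, 6 of 25 were lower and 3 higher, with 2 lower without the block and 3 without the arrays numbered 3, and Zyx and Cald1, both of actin filaments, did not pass (0.27 ± 0.12 and 0.19 ± 0.13).

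Of 33 immediate early genes, the class that peaks within the first hours after a stimulus, 5 were higher, 8 lower and 20 not called, with a median of 0.05; 3 were lower without the arrays numbered 1. Egr1 had a mean of 10537 ± 639 at 1 h, 2216 ± 1190.1 at 5 h and 3026 ± 125 at 25 h (SD, n = 3), with no call between the last 2 (0.60 ± 0.28, adjusted p = 0.1). Fosl1, a partner of Jun, fell, from 2016, 1354 and 1559 at 5 h to 581, 560.3 and 421 at 25 h without overlap (-1.65 ± 0.20, adjusted p = 2.81e-05). Klf4 changed by -1.32 ± 0.32 and Gadd45b by -0.65 ± 0.15, while Nr4a2, an orphan nuclear receptor, rose by 1.21 ± 0.30 with replicate 3 apart, at 504, 322 and 439 at 5 h and 1488, 1242 and 479 at 25 h, a call lost without the arrays numbered 1 or 2 (adjusted p = 0.0734 and 0.0695). Ier3 was bright and did not pass, at -0.15 ± 0.10.

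Of 27 genes of glycolysis and hypoxia 8 were higher and 4 lower (median 0.18), shares near those over all genes. Pfkfb3, which makes the activator of phosphofructokinase, rose from 71.7, 89.5 and 172 at 5 h to 692, 594 and 1111 at 25 h (2.90 ± 0.25, adjusted p = 1.60e-06), and Eno2, an enolase, from 97.4, 91.4 and 128 at 5 h to 641, 660 and 1004 at 25 h (2.85 ± 0.23), every 25 h array the higher for both. Pgk1 (-0.02 ± 0.11) and Pkm (0.09 ± 0.10), steps of the main pathway, did not pass. Of 73 oxidative phosphorylation genes 19 were lower and 6 higher, with a median of -0.08, but 6 were lower without the block and 7 without the arrays numbered 1. Without 1 array, the count fell to 9 when 5 h replicate 2 or 25 h replicate 1 was left out, 10 without 25 h replicate 3 and 11 without 5 h replicate 1. Among 28 genes of cholesterol and fatty acid synthesis 7 were lower and 2 higher, but 2 were lower without the block or without 25 h replicate 3, 3 without 5 h replicate 3 and 4 without 5 h replicate 1. Scd1, the stearoyl-CoA desaturase, rose from 1461, 1870.2 and 2767 at 5 h to 5400.1, 5533 and 6096 at 25 h without overlap (1.53 ± 0.15). Fdps and Lss, of sterol synthesis, changed by -1.01 and -0.84, and neither passed without the array numbered 3 at 25 h (adjusted p = 0.0884 and 0.0523).

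Clock genes were called in 8 of 12, 7 higher and 1 lower (median 0.70). Dbp, an output factor of the clock, rose from 71.6, 95.3 and 92.8 at 5 h to 359, 401 and 1137 at 25 h (2.67 ± 0.28, adjusted p = 8.87e-06), and Nfil3, its competitor, from 238, 194 and 292 at 5 h to 899, 706 and 1393 at 25 h (2.01 ± 0.22), both without overlap. Rora, which activates Bmal1, changed by 1.42 ± 0.17. Clock itself fell from 618, 941 and 811 at 5 h to 347, 443 and 316 at 25 h (-1.09 ± 0.14), though its other probe sets did not share the call, and Nr1d1 did not pass (0.36 ± 0.25).

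Of 9 tested genes of iron, 3 were higher and 2 lower (median 0.24). Tfrc, the transferrin receptor, was one of the 2 and fell from 3208, 2933 and 3079.8 at 5 h to 889, 879 and 738 at 25 h. Its groups were tight, with no overlap (-1.88 ± 0.13, limma adjusted p = 3.89e-07). Glutathione transferases Gstm1 and Gstm2 rose by 1.76 ± 0.16 and 1.61 ± 0.12, while Txnrd1, the thioredoxin reductase, fell from 3696, 3365 and 3196 at 5 h to 1511, 1449 and 1254 at 25 h (-1.29 ± 0.12) and Srxn1, which repairs peroxiredoxins, by -1.85 ± 0.24. All 4 are in the list of NRF2 targets and glutathione enzymes, of which 7 of 24 were higher and 5 lower, shares near those over all genes. In the list of TGF-beta and BMP genes 4 of 24 were higher and 6 lower: the matrix protein Tgfbi rose from 2129.7, 1434 and 3111 at 5 h to 6518, 4088 and 9883 at 25 h (1.60 ± 0.15), and the inhibitors Id1 and Smad7 changed by -1.27 and -1.30. Id3 did not pass, at -0.23 ± 0.14.

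Pkp1, a plaque protein of desmosomes, had the largest fall among the bright genes without overlap, and only the dimmer Rrp12 fell further. Its signals were 1234, 1512 and 628 at 5 h and 38.0, 52.8 and 32.4 at 25 h, the 25 h arrays all near background and far below the lowest 5 h array. The log2 change was -4.71 ± 0.39 (adjusted p = 1.36e-06), a fall of 26.2-fold, or 12.9-fold with the added signal. Its mean was 547 ± 422 at 1 h and 347 ± 236 at 15 h (SD, n = 3), so the level was highest at 5 h among the 4 times.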

How the data were processed

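The deposited values are intensities, 1 per probe set and array on a linear scale, which the authors computed with MAS5 according to the submitters' processing notes, and the version is not given in the sources used here. After 2% of values was trimmed from each end, each array's mean was 500.1 to 500.2, so arrays were already scaled, and 0 columns were left unused. Of 22690 probe sets, 64 controls and 1 with empty values were left out, and 20379 had 1 gene symbol in GEO's platform annotation. Probe sets that reached 183.1 (the median signal of the table) on 3 or more of the 12 arrays were kept, and the brightest by mean log2 represented each gene. Of the 7379 genes, 301 passed only through the 25 h arrays (159 of them higher) and 94 only through the 5 h arrays (28 lower). All 12 arrays were fitted in log2 with limma 3.58.1 (R 4.3.3), 1 mean per time and the replicate number as a block, with eBayes and an intensity trend, 6 residual degrees of freedom and 2-sided p-values adjusted over all genes; the fit was tested on simulated data. Errors are SE of the log2 change.

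The numbers pair the samples: deviations from the time means correlated at 0.349, 0.419 and 0.419 between equally numbered 5 h and 25 h arrays, and all 12 arrays lay closest to their own number. Whether equal numbers shared a day or a batch is not given; spike-in and 18S signals were higher on the arrays numbered 1. The comparison and the lists were chosen with earlier results of these data known. Named genes are the 15 largest rises and falls among called genes without overlap, moving alike in 3 of 3 pairs and bright in one group (a mean signal of at least 304.7), up to 4 called members of each list with the smallest p, and up to 2 bright members that did not pass; others were named after their values were seen or for their promoters. Promoter sequences are RefSeq's (GRCm38.p6). The alternatives are given in the closing section.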

Additional observations from a re-analysis of the deposited data

How the results depend on the processing

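Of 1942 genes higher and 1572 lower, the fit without the replicate block, in which pairing is ignored, called 1288 and 1074, and median centring of the arrays 1153 and 2211. Without 1 array or 1 replicate number, the counts were 1377 to 1944 higher and 1117 to 1572 lower. Over the 26 alternatives, 0 genes called here were called in the opposite direction. A filter on the mean signal, chosen after seeing the data, called 1775 and 1533. In 17 of the lists of gene functions, cell type markers apart, at least 50% of the tested members were called one way, and 11 of these counts stayed within 1.5 times. Those that did not were autophagy (15 higher; 9 with median centring), collagens (14; 8 without the block and 8 with median centring), the insulin-like growth factor axis (9; 5 without the block), interferon-stimulated genes (19; 9 without the block), MHC class I presentation (5; 3 without the block) and the proteasome. With 1 array or replicate number left out, the counts of members were 17 to 27 for the proteasome, 9 to 15 for autophagy and 5 to 9 for the insulin-like growth factor axis. Fibroblast markers went from 8 higher to 5 without the block and 5 with median centring. The median of pericyte and smooth muscle markers was -1.27, but 0.26 with no filter, which adds 10 dim genes. Ogn, -0.10, ranged from -0.91 to 1.10 with 1 array or number left out, the highest without replicate 3. Of 170 named genes called, 151 kept the call in every alternative that tested them, and 0 changed direction. A stricter filter, at a signal of 304.7, left 167 of the 170 in the test, and the filter on the mean signal left 166. Genes that these filters removed were not counted as losing the call. The block changed the call of B2m, Cnn2, Fdps, Fth1, Gata2, Ifit1, Igfbp5, Lamc1, Lgals3bp, Myl9, Rtp4 and Ssr1 among them. Of 79 named genes with other probe sets above the filter, 63 had the call in all of them, 10 in none (Lif, Exosc1, Ssr1, Hspa4, Psmc4, Lss, Klf4, Skil, Clock and Flt1), and 0 had an opposite call. No detection calls were used, so signals under about 45 are background in size, and 3 arrays per time limit the precision. Causes were not tested.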

Other observations

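Translation factors were lower in 19 of 47 tested genes and higher in 6 (median -0.17), with 11 lower without the arrays numbered 1. Eif6, which keeps the large ribosomal subunit apart until it is mature, went from 4496, 3695 and 3534 at 5 h to 1774, 2275 and 1960.4 at 25 h, with no overlap of the times (-0.96 ± 0.13, limma adjusted p = 7.44e-05). Eif2s2, a subunit of the factor that brings the initiator tRNA, went from 5486, 6228 and 4506 at 5 h to 2556, 3481 and 2172 at 25 h, and Eif5a, which helps elongation, from 16293, 10841 and 11138 at 5 h to 9124, 7197 and 6902 at 25 h, also without overlap (-0.71 ± 0.10). Eef1a1, which carries loaded tRNAs, measured 25948, 19302 and 17335 at 5 h and 32219, 17908 and 20959.8 at 25 h and did not pass (0.16 ± 0.09).

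Fibroblast markers were higher in 8 of 11 tested genes and lower in none (median 0.63), or 5 with equal array medians and 5 without the block. Pdgfra, a growth factor receptor of mesenchymal cells, rose from 831, 1230.3 and 2522 at 5 h to 3520.2, 3409.5 and 5565 at 25 h (1.56 ± 0.16, adjusted p = 7.89e-06), and Prrx1, a mesenchymal transcription factor, from 3182, 2463 and 3118 at 5 h to 7198, 5387 and 6711 at 25 h (1.14 ± 0.12). All 25 h arrays were above all 5 h arrays for both. Thy1 changed by 1.35 ± 0.18, while Vim, vimentin, measured 17432, 13038 and 13464 at 5 h and 19499.7, 12346 and 10315 at 25 h and did not pass (-0.10 ± 0.12).

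Shcbp1, which acts at the midbody of dividing cells, fell from 1458, 1432 and 1648 at 5 h to 249, 223 and 106 at 25 h without overlap (-3.06 ± 0.24). Csf1r, the receptor of colony stimulating factor 1, fell from 3979, 2314 and 1672 at 5 h to 869.8, 979.7 and 859.9 at 25 h (-1.46 ± 0.31), the array numbered 1 at 5 h being the highest. Hspb1, a small heat shock protein, stood apart on the arrays numbered 3, at 885, 2455 and 5317 at 5 h and 2046, 1682 and 13129.9 at 25 h, and did not pass (0.66 ± 0.41).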
